A study of Mus musculus with 9 samples.

Results

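The costimulatory and checkpoint molecules described here are 8 genes of antigen-presenting cells, taken by symbol from a table of estimated counts for 18303 genes: Cd80, Cd86, Icosl, Cd274, Pdcd1lg2, Cd40, Cd226 and Havcr2. All 8 were listed, and all 8 passed the filter on low counts. RNA had been sequenced from cells sorted as CD45+CD11b+F4/80+ out of healing skin of wild-type C57BL/6J mice, that is, leukocytes carrying surface proteins of macrophages. The later group held 5 libraries from 14 days after injury and the earlier group 4 libraries from 4 days after injury. The cells had received no treatment, and the age and sex of the animals and whether any were pooled are not given in the sources used here. No label ties a library to an animal of its own, so each p-value reflects only how far these libraries differ among themselves, which may be technical variation.

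A T cell that meets its antigen needs further signals from the presenting cell to be activated, and other signals restrain it. CD80 and CD86 bind the activating receptor CD28 and the inhibitory receptor CTLA-4, ICOS ligand binds ICOS, and PD-L1 (Cd274) and PD-L2 (Pdcd1lg2) bind the inhibitory receptor PD-1. CD40 receives a signal from CD40 ligand on activated T cells. CD226 and TIM-3 (Havcr2) are receptors best known from lymphocytes that myeloid cells can carry too: CD226 activates on binding CD155 or nectin-2, and TIM-3 restrains. In macrophages, inflammatory signals induce several of these molecules, and IL-4 is a known inducer of PD-L2.

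Total counts were between 17982630 and 50445159 at day 14 and between 26479011 and 57809914 at day 4, and the members held between 186 counts (Cd226) and 19392 counts (Cd86) in a library. Day 14 replicate 1 and day 4 replicates 3 and 4 were the deeper 3 libraries, so values are also given within the 6 shallower libraries (4 at day 14, 2 at day 4) and within the 3 deeper ones (1 and 2). The counts of day 14 replicate 5 stop partway along chromosome 9, and 1503 genes there and on X and Y lie beyond that break. None of the members does, and values of list genes beyond it come from the 8 other libraries. The genes of the proteins used in the sort were abundant at day 14 and day 4, with Ptprc (CD45) at 1421 ± 74.4 and 1090 ± 90.1 CPM, Itgam (CD11b) at 1202 ± 73.5 and 1637 ± 166 CPM and Emr1 (F4/80) at 1355 ± 109 and 1046 ± 54.3 CPM (CPM, the share of a library's counts after TMM scaling of library sizes, mean ± SD, n = 5 and 4).

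Cd226, Icosl, Cd40 and Cd80 rose and Havcr2 fell at day 14, and Cd86, Cd274 and Pdcd1lg2 did not pass the test. The test was edgeR's quasi-likelihood test across 13363 genes with Benjamini-Hochberg adjustment and a threshold of 0.05. That test called 25.5% of all genes tested, 12.8% higher and 12.7% lower, beside 4 higher and 1 lower among the 8 members. A fit without the genes beyond the break called 31.1% of its 12289 genes (15.9% higher, 15.1% lower) and again 4 and 1 members. A fit without day 14 replicate 5 called 28.6% (14.8% higher, 13.8% lower) and likewise 4 and 1 members. Within the shallower libraries 9.86% of all genes tested were called, and with 1 library left out 18.1% to 29.5%. The counts of called list genes given below for such fits are to be read beside these shares. The median log2 fold change of the members was 0.44, against -0.01 over all genes tested. In 4 of the 8 members (Cd226, Icosl, Cd40 and Havcr2) the libraries of the 2 days did not overlap, which held for 24.4% of all genes tested (11.6% with day 14 above, 12.8% with day 14 below). Because whole sorted samples were sequenced, more cells that carry a transcript and more RNA per cell cannot be told apart.

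**Figure D1:**
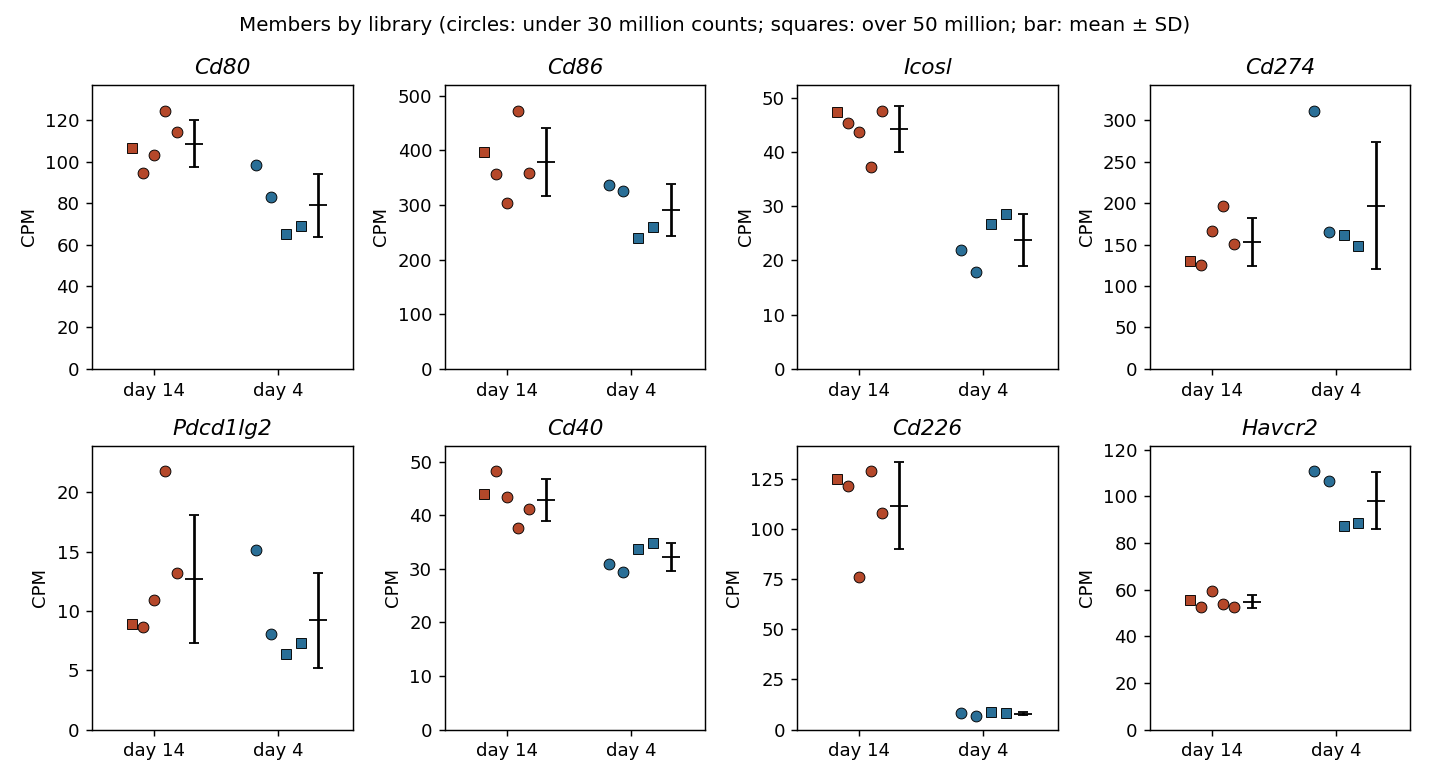
CPM of each member (vertical axis, from 0) in the 5 day 14 libraries (left, red) and the 4 day 4 libraries (right, blue), with squares for the 3 deeper libraries and a bar for the mean ± SD. Cd226, Icosl and Cd40 lie higher in every day 14 library, Havcr2 lies lower in every one, and day 4 replicate 1 stands apart for Cd274 at 311 CPM.

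Cd80 (chromosome 16, 38457430 to 38495958, GRCm38), the ligand with the higher affinity for CD28 and CTLA-4, was at 107, 94.5, 103, 125 and 114 CPM in day 14 replicates 1 to 5 and at 98.6, 82.8, 65.3 and 69.2 CPM in day 4 replicates 1 to 4. Day 4 replicate 1 lay within the day 14 range, and the 2 deeper day 4 libraries were the lowest. Cd80 rose 1.38-fold (log2 fold change 0.46 ± 0.13 SE, edgeR adjusted p = 0.027). This call depended on which libraries were in the fit. It was lost in fits that lacked day 4 replicate 3 (0.36, adjusted p = 0.0788), day 4 replicate 4 (0.38, adjusted p = 0.0806), day 14 replicate 1 (0.47, adjusted p = 0.0532) or day 14 replicate 4 (0.41, adjusted p = 0.0605). Its log2 fold change was 0.25 ± 0.14 within the shallower libraries (adjusted p = 0.31) and 0.65 ± 0.10 within the deeper ones, where the lone day 14 library is assumed to vary like the day 4 libraries.

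Cd86 (chromosome 16, 36568956 to 36666158), the other ligand of CD28 and CTLA-4, had the highest counts of the members. It was at 397, 358, 304, 473 and 359 CPM in the day 14 libraries, against 336, 327, 240 and 260 CPM in the day 4 libraries. The groups overlapped, since day 14 replicate 3 lay below day 4 replicates 1 and 2. The log2 fold change was 0.38 ± 0.14 and missed the threshold (edgeR adjusted p = 0.0808, 95% interval before adjustment 0.06 to 0.70). Cd86 passed without day 14 replicate 3 (0.42, adjusted p = 0.039). It was at 0.15 ± 0.17 in the shallower libraries and at 0.65 ± 0.10 in the deeper ones, the same depth pattern as for Cd80.

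The proportion of these B7 transcripts to each other did not differ detectably between the days. The log2 ratio of Cd86 to Cd80 counts within a library, which needs no scaling between libraries, averaged 1.79 ± 0.17 at day 14 and 1.88 ± 0.09 at day 4. The difference of -0.09 lay within the spread (two-sided exact permutation test over the 9 libraries, p = 0.373, and 0.373 adjusted over 2 ratios). The lowest ratios, 1.56 and 1.65, were those of day 14 replicates 3 and 5.

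Icosl (chromosome 10, 78069368 to 78079525), the ligand of the T cell costimulator ICOS, rose the most among the ligands. It was at 47.4, 45.3, 43.7, 37.2 and 47.6 CPM in the day 14 libraries, against 21.99, 17.8, 26.6 and 28.6 CPM in the day 4 libraries. Every day 14 library lay above every day 4 library, with the 2 shallower day 4 libraries the lowest. Icosl was 1.86-fold higher at day 14 (log2 fold change 0.90 ± 0.14, edgeR adjusted p = 0.00145), at 1.11 ± 0.16 in the shallower libraries (adjusted p = 0.00808) and at 0.76 ± 0.12 in the deeper ones.

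Cd274, which encodes PD-L1, and Pdcd1lg2, which encodes PD-L2, are neighbours on the same strand of chromosome 19 (29362107 to 29388095 and 29410919 to 29472927), with 22823 bases and 0 other listed genes between them. The 250 bases before the start that RefSeq's promoter table gives for each (GRCm38.p6, plus strand, 5′ to 3′), which for Cd274 lies inside the span above, since that span begins upstream of it, are shown because these neighbours had their highest library in common at each day but differed between days in their proportion. Capitals mark matches to the motifs searched. Cd274 is read from chr19:29367188-29367437 and Pdcd1lg2 from chr19:29410669-29410918.
Cd274: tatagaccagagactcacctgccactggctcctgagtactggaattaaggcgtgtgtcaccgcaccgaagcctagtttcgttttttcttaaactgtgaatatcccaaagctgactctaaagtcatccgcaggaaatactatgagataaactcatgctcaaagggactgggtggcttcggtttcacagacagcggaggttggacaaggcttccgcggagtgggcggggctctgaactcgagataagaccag
Pdcd1lg2: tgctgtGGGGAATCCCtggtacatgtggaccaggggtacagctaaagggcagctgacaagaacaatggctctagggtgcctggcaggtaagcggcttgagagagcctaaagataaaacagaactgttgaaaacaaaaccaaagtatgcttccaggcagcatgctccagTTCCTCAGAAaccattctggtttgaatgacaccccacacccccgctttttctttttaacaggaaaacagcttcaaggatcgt

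In the Pdcd1lg2 window the capitals are a match to the NF-kappaB motif, 244 to 235 bases before the start, and one to the STAT6 motif TTCNNNNGAA, 82 to 73 bases before it. Among 32851 mouse promoters of the same length, 7.25% held the NF-kappaB motif and 5.85% the STAT6 motif on either strand. The Cd274 window held no match to these or to the GAS motif TTCNNNGAA, the AP-1 motif TGANTCA, an ISRE-like GAAANNGAAA, the PU.1-IRF motif GGAANTGAAA or TATAAA, which 7.02%, 6.75%, 2.98%, 0.594% and 12.4% of promoters held. Matches were also found in the windows of other members, whose sequences are not shown. Icosl held one to the NF-kappaB motif, 111 to 102 bases before the start. Cd80 and Havcr2 each held one to the AP-1 motif, 42 to 36 and 200 to 194 bases before it. A match says only that these letters occur in the window. Whether any match is related to the levels or proportions of the members was not tested.

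Cd274 was at 130, 125, 166, 196 and 151 CPM in the day 14 libraries and at 311, 165, 162 and 149 CPM in the day 4 libraries. Day 4 replicate 1 stood apart, at 2.09 times the lowest library of its day, and without it the other 3 lay inside the day 14 range. The log2 fold change of -0.36 ± 0.23 did not pass (edgeR adjusted p = 0.298, 95% interval -0.88 to 0.17; within the shallower libraries -0.60, adjusted p = 0.243, within the deeper ones -0.27, adjusted p = 0.0427), and without day 4 replicate 1 it was -0.05 (adjusted p = 0.876). An exon of Cd274 overlaps the antisense gene AC119228.1, and the library kit does not mark strand, so reads from that overlap cannot be assigned to either.

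Pdcd1lg2 had the lowest mean count of the members, with 217 to 438 in a library. It was at 8.87, 8.63, 10.9, 21.8 and 13.2 CPM in the day 14 libraries, against 15.2, 8.05, 6.34 and 7.27 CPM in the day 4 libraries. Each day had a library that was high for both neighbours, day 14 replicate 4 and day 4 replicate 1. The log2 fold change of 0.46 ± 0.35 did not pass (edgeR adjusted p = 0.368, 95% interval -0.33 to 1.25), and single libraries moved it: leaving out day 4 replicate 1 gave 0.81 (adjusted p = 0.0976), leaving out day 14 replicate 4 gave 0.18 (adjusted p = 0.713) and leaving out day 4 replicate 3 gave 0.30 (adjusted p = 0.634). Within the shallower libraries it was 0.21 ± 0.43 and within the deeper ones 0.37 ± 0.20.

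Relative to Cd274 within each library, Pdcd1lg2 was higher at day 14. Its counts were 6.82%, 6.93%, 6.6%, 11.1% and 8.76% of those of Cd274 in the day 14 libraries, against 4.88%, 4.89%, 3.92% and 4.90% in the day 4 libraries. All 5 day 14 libraries lay above all 4 day 4 libraries, also where replicates that were high for both genes are compared. The mean log2 ratio was -3.67 ± 0.32 at day 14 and -4.43 ± 0.16 at day 4, a difference of 0.77 (two-sided exact permutation test, p = 0.00794, the smallest that these group sizes allow, and 0.0159 adjusted over 2 ratios). With 1 library left out the difference stayed between 0.64 and 0.83. Without any 1 of the day 14 libraries, adjusted p = 0.0571, which is the smallest that 4 against 4 libraries can give. In the 6 shallower libraries it was 0.74, with adjusted p = 0.267 where 0.133 is the smallest that 4 against 2 libraries can give.

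**Figure D2:**
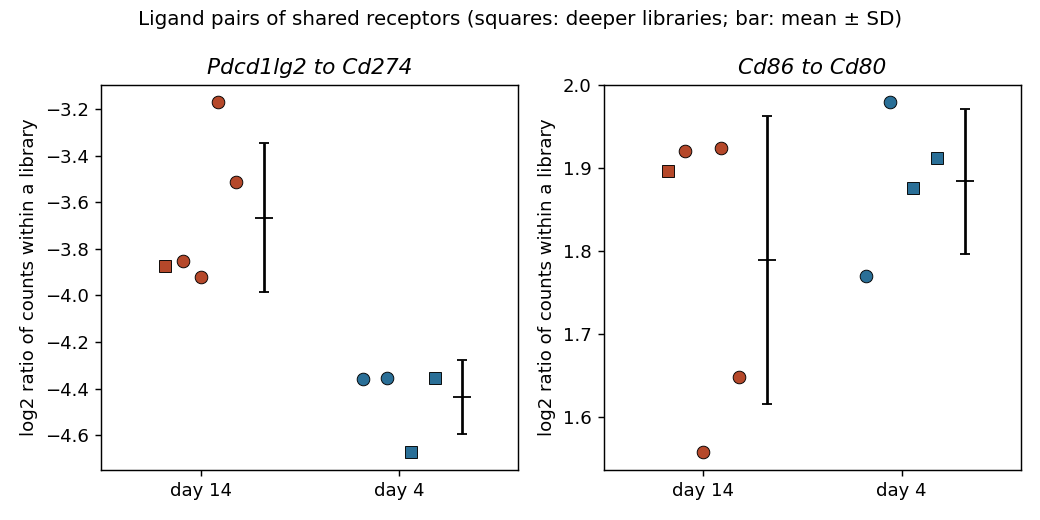
Log2 ratio of counts within each library (vertical axis) for Pdcd1lg2 to Cd274 (left panel) and Cd86 to Cd80 (right panel), with day 14 left of day 4, squares for deeper libraries and bars for the mean ± SD. The Pdcd1lg2 to Cd274 ratio is higher in all 5 day 14 libraries, with means of -3.67 and -4.43, whereas the Cd86 to Cd80 ratios of the days overlap.

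Cd40 (chromosome 2, 165055614 to 165071654), the receptor through which T cell help reaches presenting cells, rose by a small and even amount. It was at 44.0, 48.2, 43.4, 37.5 and 41.3 CPM in the day 14 libraries, against 30.9, 29.3, 33.8 and 34.9 CPM in the day 4 libraries. The groups did not overlap, and the coefficient of variation among libraries was 9.07% at day 14 and 7.90% at day 4. Cd40 was 1.33-fold higher at day 14 (log2 fold change 0.41 ± 0.09, edgeR adjusted p = 0.00804). It was at 0.49 ± 0.13 in the shallower libraries, where it did not pass (adjusted p = 0.065), and at 0.34 ± 0.11 in the deeper ones.

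Cd226 (chromosome 18, 89176954 to 89272232) changed far more than the other members. It was at 125, 121, 75.7, 128 and 108 CPM in the day 14 libraries, against 8.13, 6.80, 8.82 and 8.23 CPM in the day 4 libraries. The lowest day 14 library, replicate 3, was still well above the highest day 4 library. Cd226 was 13.9-fold higher (log2 fold change 3.80 ± 0.17, edgeR adjusted p = 1.26e-06), and 99.7% of all genes tested had a smaller change in either direction. The value was 3.84 ± 0.26 in the shallower libraries and 3.86 ± 0.11 in the deeper ones.

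CD226 is best known from T cells and NK cells, and transcripts that mark those cells were examined in the same libraries. The T cell receptor chain genes Cd3d, Cd3e and Cd3g were at 0.0457, 0.0103 and 0.083 CPM at day 14 and at 0.0707, 0.0256 and 0.0431 CPM at day 4, and the NK receptor gene Ncr1 at 0.0083 and 0.0139 CPM. The summed level of the 10 T cell markers before the break, which leaves out these Cd3 genes, was 79.9 to 108 CPM against 36.8 to 42.1 CPM. It was mostly Cd4 and Cd2. Of the 13 T cell markers 5 could be tested and 2 rose, Cd4 (54.2 ± 7.26 and 32.3 ± 1.57 CPM), which mouse dendritic cells can carry too, and the adhesion receptor gene Cd2 (35.03 ± 5.41 and 4.52 ± 1.42 CPM). Of 11 NK and innate lymphoid markers 5 could be tested and 2 rose, the activating receptor gene Klrk1 (37.5 ± 5.23 and 9.06 ± 2.92 CPM) and the IL-7 receptor gene Il7r (edgeR adjusted p = 0.0479, 211 ± 72.3 and 106 ± 35.9 CPM). The summed level over 9 NK and innate lymphoid markers, mostly Il7r, was 157 to 370 CPM at day 14, against 87.4 to 161 CPM at day 4. The number of these markers that rose was 1 without any 1 of day 4 replicates 2, 3 and 4 or day 14 replicates 1, 2 and 4, and 1 in the shallower libraries.

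Havcr2 (chromosome 11, 46454931 to 46481255), the inhibitory receptor TIM-3, was the member that fell. It was at 55.4, 52.7, 59.3, 53.9 and 52.6 CPM in the day 14 libraries, against 111, 106, 87.2 and 88.4 CPM in the day 4 libraries. The groups did not overlap, and the day 14 libraries lay within 1.13 times of each other. Havcr2 was 1.79-fold lower at day 14 (log2 fold change -0.84 ± 0.09, edgeR adjusted p = 0.000159), at -1.01 ± 0.09 in the shallower libraries (adjusted p = 0.00251) and at -0.68 ± 0.10 in the deeper ones.

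**Figure D3:**
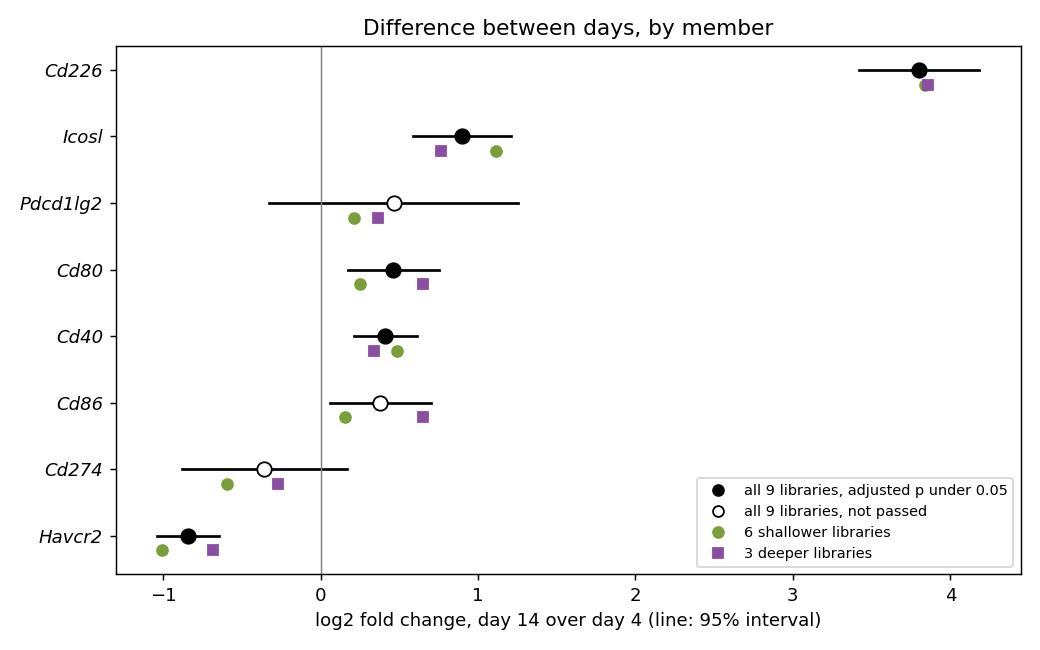
Log2 fold change of each member, day 14 over day 4 (horizontal axis), with its 95% interval; filled points passed the test over all 9 libraries, and the coloured points below each line are the 6 shallower (green circles) and 3 deeper libraries (purple squares). Cd226 lies apart at 3.80, and Cd80 and Cd86 are lower within the shallower libraries (0.25 and 0.15) than within the deeper ones (0.65 for both).

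Per kilobase of exon, Cd86 was the most abundant member at both days and Cd274 the second. At day 14 the order was Cd86 (149 ± 24.6 CPM per kilobase), Cd274 (42.4 ± 7.99), Cd80 (29.4 ± 3.07), Cd226 (24.8 ± 4.78), Havcr2 (20.1 ± 1.02), Icosl (15.7 ± 1.52), Cd40 (14.4 ± 1.30) and Pdcd1lg2 (6.46 ± 2.75). The ranges of the neighbours Cd80 and Cd226, of Cd226 and Havcr2 and of Icosl and Cd40 overlapped between libraries, and those of the other neighbours in this order did not. At day 4 the order was Cd86 (114 ± 18.9), Cd274 (54.3 ± 21.2), Havcr2 (36.1 ± 4.45), Cd80 (21.3 ± 4.07), Cd40 (10.8 ± 0.853), Icosl (8.44 ± 1.72), Pdcd1lg2 (4.69 ± 2.06) and Cd226 (1.78 ± 0.189). Here the ranges of Cd40 and Icosl and of Icosl and Pdcd1lg2 overlapped. By mean, Cd226 was thus the last of the 8 members at day 4 and the fourth at day 14, and Havcr2 was the third at day 4 and the fifth at day 14. The libraries do not settle the day 14 place of Cd226. Its range there (16.9 to 28.6) overlapped those of Cd80, Havcr2 and, just, Icosl (13.2 to 16.9).

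**Figure D4:**
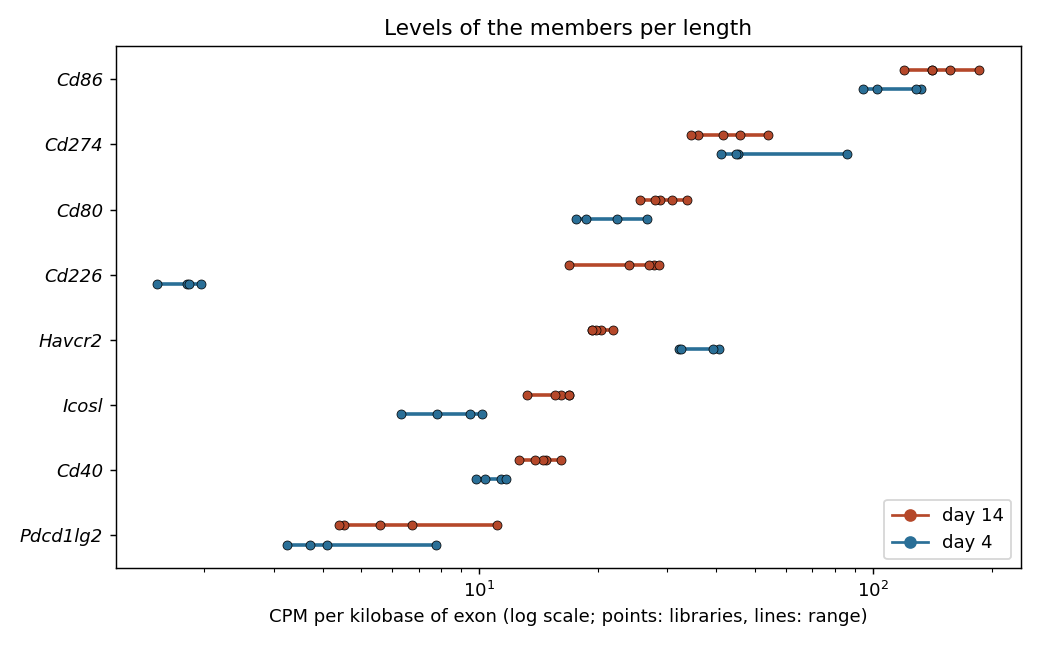
CPM per kilobase of exon (horizontal axis, log scale) for each member in the day 14 libraries (red, upper line) and the day 4 libraries (blue, lower line), with points for libraries and lines for their range. Cd226 has a mean of 24.8 at day 14 and 1.78 at day 4, while Cd86 is highest at both days (149 and 114).

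Of 7 receptors and ligands best known from T cells that pair with the members, 4 could be tested. Cd28, the activating receptor of CD80 and CD86, and Icos rose, while 0 fell (median log2 fold change 0.63). Which cells carried these transcripts was not tested, and the means of Cd3d, Cd3e and Cd3g were at most 0.083 CPM at either day. Cd28 was at 37.8, 34.0, 19.2, 30.4 and 23.0 CPM in the day 14 libraries and at 16.6, 19.8, 14.8 and 13.4 CPM in the day 4 libraries (log2 fold change 0.84 ± 0.20, edgeR adjusted p = 0.0137, and 0.53, adjusted p = 0.224, in the shallower libraries). Icos was at 2.17 ± 0.39 and 1.11 ± 0.53 CPM. Pdcd1, which encodes PD-1, was at 1.28 ± 0.15 and 0.96 ± 0.10 CPM, and Ctla4 at 0.76 ± 0.22 and 0.86 ± 0.30 CPM. Cd40lg, Tigit and Cd96 had a mean of at most 0.121 CPM at either day and were not tested. The number that rose was 1 without any 1 of day 4 replicates 1, 3 and 4 or day 14 replicates 1, 2 and 4, and 0 in the shallower libraries.

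The partners of CD226 and TIM-3 were measured as well. Of 6 tested genes of the nectins and the CD226 axis, Pvr, Pvrl2 and Pvrl4 fell and Cadm1 rose (median log2 fold change -0.57). Pvr, which encodes the CD226 ligand CD155, was at 144, 126.2, 125.9, 178 and 136 CPM in the day 14 libraries, against 221, 201, 155 and 181 CPM in the day 4 libraries. Its groups overlapped through day 14 replicate 4, and its call (log2 fold change -0.42 ± 0.13, edgeR adjusted p = 0.0406) was lost within the shallower libraries (-0.59, adjusted p = 0.0526) and within the deeper ones (-0.23, adjusted p = 0.0992). Single libraries decided it as well: leaving out day 4 replicate 1 gave -0.33 (adjusted p = 0.11), and the call was also lost when day 4 replicate 2 or day 14 replicate 1, 2 or 5 was left out (-0.42 to -0.37) and with upper-quartile scaling (-0.35). In the shallower libraries 0 of the nectins before the break fell. Pvrl2, which encodes nectin-2, the other CD226 ligand, fell to 3.77 ± 0.94 CPM at day 14, against 7.31 ± 0.62 CPM at day 4 (adjusted p = 0.00561). Cadm1, an adhesion molecule of the nectin-like family that lies beyond the break, was at 14.8 ± 1.30 and 5.15 ± 0.96 CPM (n = 4 and 4, edgeR adjusted p = 5.56e-05).

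Of 5 tested genes of the TIM family and of TIM-3 ligands, Timd4 and Hmgb1 rose and Lgals9 fell (median log2 fold change 0.31). Lgals9, which encodes the TIM-3 ligand galectin-9, was at 106, 105, 106, 109 and 104 CPM in the day 14 libraries, against 164, 153, 186 and 171 CPM in the day 4 libraries. Like Havcr2 it was lower in every day 14 library (log2 fold change -0.67 ± 0.07, edgeR adjusted p = 0.000152). Timd4, a phosphatidylserine receptor of macrophages, was at 6.18 ± 1.35 and 2.40 ± 0.70 CPM (edgeR adjusted p = 0.00284). The number that rose was 1 without any 1 of day 4 replicates 1, 3 and 4 or day 14 replicates 1, 2 and 4, and also in the shallower libraries. The number that fell was 2 without day 4 replicate 2 or day 14 replicate 3.

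Of 3 tested further genes of the B7 and butyrophilin families, 1 fell and 0 rose (median log2 fold change -0.19). It was Cd276, which encodes B7-H3 and lies beyond the break, at 18.2 ± 2.02 and 22.9 ± 0.83 CPM (n = 4 and 4, edgeR adjusted p = 0.0315). Its log2 fold change was -0.33, and the call was lost within the shallower libraries (-0.35), with upper-quartile scaling (-0.31), and when day 4 replicate 1 (-0.31) or 3 (-0.34) or day 14 replicate 1 (-0.29) or 4 (-0.28) was left out. The gene of the checkpoint ligand VISTA, listed as 4632428N05Rik, had 435 ± 50.2 and 498 ± 73.7 CPM and missed the threshold (edgeR adjusted p = 0.262). Of 9 tested costimulatory TNF family genes and their partners, Tnfsf18 and Btla rose and Tnfsf4 fell (median log2 fold change 0.23). Tnfsf18, which encodes GITR ligand, was at 13.0, 14.7, 12.4, 15 and 11.4 CPM in the day 14 libraries, against 3.72, 3.91, 3.58 and 4.56 CPM in the day 4 libraries (log2 fold change 1.75 ± 0.13, adjusted p = 1.69e-05). Btla, an inhibitory receptor of lymphocytes and dendritic cells, was at 5.20 ± 1.04 and 2.06 ± 0.25 CPM. Tnfsf4, which encodes OX40 ligand, was at 1.79 ± 0.51 and 4.43 ± 1.28 CPM, and Tnfsf14, the most abundant, at 71.4 ± 6.05 and 64.3 ± 13.1 CPM.

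Of 12 genes of CD40 signalling, 4 rose and 1 fell (median log2 fold change 0.06). The signalling adaptor gene Traf5 was at 18.8 ± 0.71 and 9.79 ± 1.92 CPM (log2 fold change 0.94 ± 0.13, edgeR adjusted p = 0.00074), and Tnfaip3, a brake on NF-kappaB and the most abundant, at 889 ± 109 and 647 ± 103 CPM (0.46 ± 0.13, adjusted p = 0.0249). The Tnfaip3 call was lost within the shallower libraries (0.28) and when day 4 replicate 2, 3 or 4 or day 14 replicate 1 or 2 was left out (0.37 to 0.43). The others were Birc2 and Birc3, which rose, and Traf2, which fell. With 1 library left out, the number that rose was between 1 and 5, and it was 1 in the shallower libraries. It was 1 without day 4 replicate 3 and 2 without day 4 replicate 2 or 4 or day 14 replicate 1 or 2. The number that fell was 0 without any 1 of day 4 replicates 1 and 4 and day 14 replicates 1 and 2, 2 without day 4 replicate 3, and 0 in the shallower libraries.

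Of 12 genes listed for the induction and stability of PD-L1, 6 rose (median log2 fold change 0.18). The list was not sorted by whether a gene raises or restrains PD-L1, and it includes Socs1 and Socs3. Cd274 itself did not pass. Irf1, the interferon-induced factor that acts on the gene of PD-L1, was at 207, 206, 222, 137 and 166 CPM in the day 14 libraries, against 92.5, 99.3, 118 and 103 CPM in the day 4 libraries (log2 fold change 0.86 ± 0.14, edgeR adjusted p = 0.00208). Day 14 replicate 4, with the highest Cd274 and Pdcd1lg2 of its day, had the lowest Irf1 of that day. Whether the levels of these genes are related was not tested. The kinase gene Jak2 was at 371 ± 62.9 and 219 ± 50.8 CPM. Cmtm6, which keeps PD-L1 protein at the cell surface and lies beyond the break, was at 313 ± 9.04 and 249 ± 9.89 CPM (n = 4 and 4, adjusted p = 0.0113). Without the gene beyond the break, 5 rose, against 3 without day 4 replicate 3 or 4 and 1 in the shallower libraries. Socs3, the most abundant of the list, had 521 ± 111 and 692 ± 152 CPM and missed the threshold (log2 fold change -0.41, edgeR adjusted p = 0.122), though it passed without day 14 replicate 3 (-0.56, adjusted p = 0.025) and within the deeper libraries (-0.76).

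Of 14 other inhibitory receptors and ligands of myeloid cells, 5 rose and 2 fell (median log2 fold change 0.03). Siglece, an inhibitory sialic acid receptor, was at 22.5 ± 2.75 and 11.2 ± 1.22 CPM (log2 fold change 1.00 ± 0.12, edgeR adjusted p = 0.000257). Cd200r1, the receptor of CD200, was at 106 ± 17.99 and 49.8 ± 4.03 CPM. Sirpa, the receptor of the CD47 signal that restrains phagocytosis and the most abundant of the list, fell to 755 ± 55.1 CPM at day 14, against 1008 ± 78.8 CPM at day 4 (log2 fold change -0.42, edgeR adjusted p = 0.0059, and -0.32, adjusted p = 0.126, in the shallower libraries). The others were Lilrb4, Lag3 and Clec4a2, which rose, and Pirb, which fell. The number that rose was 3 without day 4 replicate 2, 3 or 4 or day 14 replicate 1 or 2, and 2 in the shallower libraries. The number that fell was 1 without day 4 replicate 1, 3 or 4 or day 14 replicate 1, 2 or 4, and 0 in the shallower libraries.

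**Figure D5:**
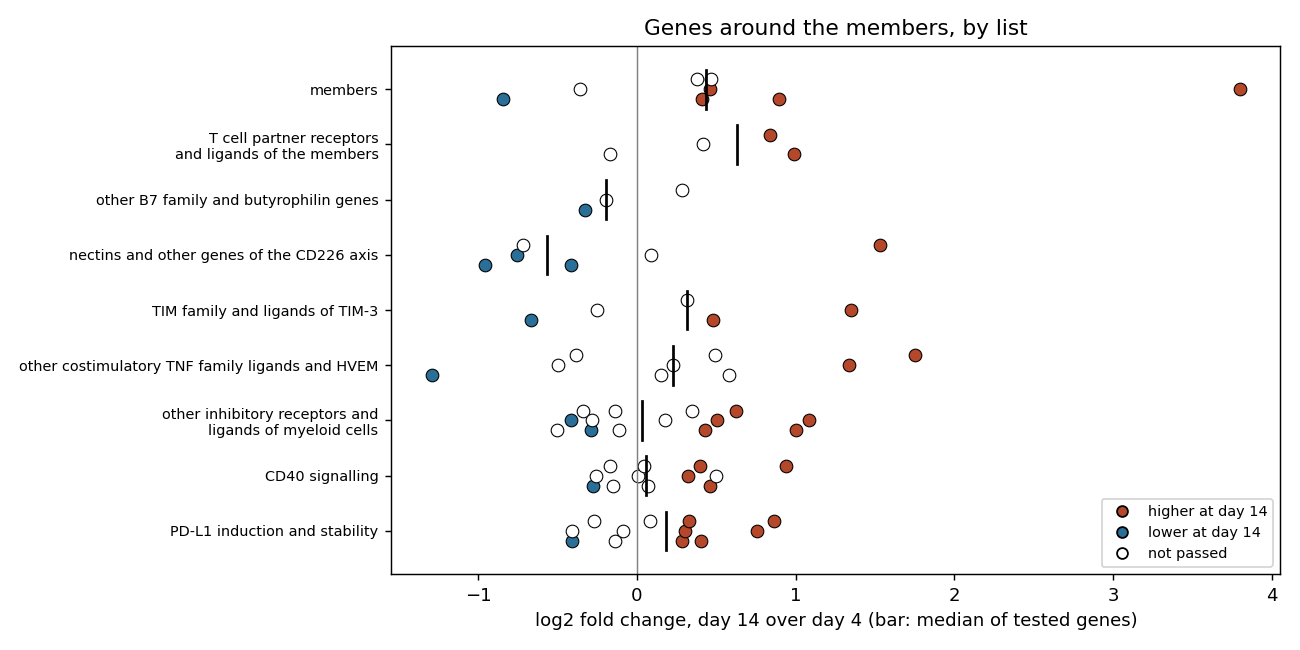
Log2 fold change, day 14 over day 4 (horizontal axis), of each tested gene in the lists around the members, red where it rose, blue where it fell, white where it did not pass, with a black bar for the median of each list. Cd226 at 3.80 lies beyond every gene of the other lists, whose highest value is that of Tnfsf18 at 1.75.

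Transcripts of other cell types moved with the same comparison. Of 11 dendritic cell markers, whose cells carry CD80, CD86 and CD40, 8 rose and 0 fell (4 rose in the shallower libraries), and the summed level of the 10 before the break was 498 to 587 CPM at day 14, against 264 to 325 CPM at day 4. Cd209a was at 136 ± 19.8 and 51.5 ± 6.38 CPM and Itgax at 184 ± 12.3 and 95.1 ± 9.88 CPM, while Flt3 was at 16.3 ± 4.16 and 15.3 ± 3.54 CPM. Of 8 fibroblast markers 5 fell and 0 rose (7 summed, 5160 to 8480 CPM against 9460 to 18900 CPM), among them Col3a1 and Col1a1. Of 4 tested eosinophil markers 4 rose, Ccr3 and Prg2 among them (sum of those before the break 24.1 to 30.9 CPM against 7.32 to 12.8 CPM). The remaining eosinophil marker, the peroxidase gene Epx, never exceeded 3 counts in a library and was not tested. Of 5 keratinocyte and Langerhans cell markers 4 rose, Cd207 and Krt14 among them (9.69 to 18.6 CPM against 3.76 to 7.98 CPM). The keratinocyte and Langerhans cell number was 1 without day 4 replicate 1, 3 or 4 or day 14 replicate 2, 2 without day 14 replicate 3 and 0 in the shallower libraries. Of 3 tested B cell and plasma cell markers 2 rose, Cd79b and Igj (13.4 to 19.7 CPM against 5.13 to 7.55 CPM). Of 6 tested mast cell markers 2 rose and 1, Kit, fell (101 to 751 CPM against 188 to 469 CPM, mostly Hdc), and of 6 tested neutrophil markers 0 rose and 0 fell by edgeR (1 fell by DESeq2 and by limma-voom, 1 fell without day 14 replicate 3, and 1 rose and 5 fell within the deeper libraries; 239 to 1700 CPM against 609 to 1670 CPM, S100a9 and S100a8 the most abundant). Of 10 macrophage and sort markers 2 rose, Ptprc and Emr1, and 5 fell, Itgam, Cd68, Mertk, Aif1 and Fcgr1 (0 and 2 in the shallower libraries). Fcgr1, which encodes the Fc receptor CD64, fell the most of these, to 135 ± 11.4 CPM at day 14, against 290 ± 18.7 CPM at day 4 (log2 fold change -1.10 ± 0.08, edgeR adjusted p = 2.4e-05). Csf1r, the macrophage growth factor receptor, was at 1977 ± 108 and 2012 ± 185 CPM, with Lyz2 at 10657 ± 899 and 10010 ± 524 CPM and Cd14 at 2256 ± 387 and 2512 ± 726 CPM. The part of these cell types in the changes of the members was not tested.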

How the data were processed

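The authors deposited estimated counts per gene symbol, not normalized (17.2% of values are not whole), and a table of normalized values, a signal made by dividing the counts by a factor per library. The tools named are HISAT2 2.1.0, Partek 6.6, CASAVA 1.8, DESeq2 and SAMtools 1.4, and the build is mm10, per the submitters' processing notes. Libraries came from total RNA by a kit that does not mark strand, per the labels' protocols. Counting rules and annotation are not given in the sources used here.

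Estimated counts were rounded, filtered with filterByExpr, scaled with TMM and tested with edgeR 4.0.16 (robust glmQLFit, glmQLFTest, two-sided) in R 4.3.3, all 9 libraries in 1 fit. Standard errors were derived from the F statistic. Ratios used a pseudocount of 0.5. Pairs of libraries of the same day differed by more than sampling noise (a chi-square of 11.6 to 78.1 for each degree of freedom), so none was counted as a copy. Exon lengths came from GENCODE M21 (GRCm38, which mm10 also names), and positions and promoters from RefSeq GRCm38.p6, where 17100 symbols matched, 1097 by an older name, and 106 did not. A promoter was used for 5 of the 8 members. The fit was tested on simulated data.

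The members and lists were chosen with earlier results of these data known. Named are the 8 members, of each list the most abundant gene and the one with the smallest p, of each marker list the 2 most abundant, and the 3 genes with the most similar profile to each member. Other genes named, such as those of counts of 5 or fewer, were picked once their values had been seen. Alternatives were other scalings, filters and tests (limma 3.58.1, DESeq2 1.42.0), depth subsets, the normalized values as deposited, and each library left out. A gene of the list on PD-L1 induction and the calls of lower genes in that list are not reported here.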

Additional observations from a re-analysis of the deposited data

Results flagged for a closer look

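Of 20 groups of libraries examined for a single distant value (8 members and 2 ratios at 2 days), 2 were picked out, where chance picks about 1 in 20. The Cd274 level of day 4 replicate 1 was 311 CPM, while the other 3 day 4 libraries lay between 149 and 165 CPM. The log2 ratio of Pdcd1lg2 to Cd274 in day 4 replicate 3 was -4.67, while the other 3 day 4 libraries lay between -4.36 and -4.35.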

How the results depend on the processing

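The calls of Icosl (log2 fold change 0.76 to 1.11), Cd226 (3.71 to 3.89) and Havcr2 (-1.01 to -0.68) held under every alternative run. Of 294 values for the 8 members, the 2 ratios and the counts of genes and members, 268 were classed as the same. For members and ratios this means the same direction and call, and for counts a value within 1.5-fold of the main fit. Cd80 was at 0.35 with library size as a covariate, 0.25 within the shallower libraries and between 0.36 and 0.58 with 1 library left out. Cd86 passed with upper-quartile scaling (0.44), with total counts (0.39), with DESeq2 (0.38) and within the deeper libraries (0.65), and lay between 0.28 and 0.46 with 1 library left out. Cd274 passed within the deeper libraries (-0.27), and Cd40 did not within the shallower ones (0.49). The difference in the log2 ratio of Pdcd1lg2 to Cd274 was 0.74 within the shallower libraries and between 0.64 and 0.83 with 1 library left out. Members that rose numbered 2 within the shallower libraries, where 9.86% of all genes tested were called. Over all genes, 668 rose and 666 fell within the shallower libraries, 2860 and 2806 within the deeper ones, and 1089 fell with upper-quartile scaling, where 65.5% of calls were higher, against 50.3% with TMM. 3 named genes that did not pass changed sign. Hdc was at 0.081 with upper-quartile scaling, 0.051 with total counts, 0.0080 with a filter of 5 CPM and between -0.93 and 0.42 with 1 library left out. Tes was at -0.13 with library size as a covariate, -0.12 within the shallower libraries and between -0.10 and 0.28 with 1 library left out, and Cd14 was between -0.28 and 0.067 with 1 library left out. The cause of these shifts was not tested. The alternative that takes genes beyond the break from the 8 other libraries was chosen after seeing the data. No paired analysis was possible because the labels give no replicate numbers that pair libraries. Pdcd1lg2, with 217 to 438 counts, has the lowest mean count of the members.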

Other observations

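For each member, the tested genes with at least 5 CPM whose levels ran most like it over the 9 libraries were sought among 9268 candidates, by the root mean square difference of log2 CPM after centring. With 2 days, likeness rests largely on the difference between days, and it is given as a description.

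The profiles nearest to Cd226 were Hr, which encodes a nuclear corepressor (0.28 log2 units), the ribonuclease gene Ear2 of a family of near-identical copies (0.34) and Slc9a4, a sodium/proton exchanger gene (0.34), where the median candidate lay 1.91 away. Hr was at 68.9, 79.2, 71.9, 75.2 and 81.4 CPM in the day 14 libraries and at 6.14, 4.87, 8.13 and 7.86 CPM in the day 4 libraries, and it lacks the dip of Cd226 in day 14 replicate 3. Ear2 (213 CPM) and Slc9a4 (19.8 CPM) had their lowest day 14 value in that replicate, as Cd226 did. The nearest to Havcr2 were Tmed1 (0.08), the kinase gene Sgk1 (0.10) and the glycosyltransferase gene Mgat5 (0.10), and all 3 fell. The nearest to Icosl were Olfm1 (0.10), the kinase subunit gene Pik3r6 (0.10) and Traf5 (0.11), and all 3 rose. Traf5 also stands in the list of CD40 signalling.

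The nearest to Pdcd1lg2 were the macrophage elastase gene Mmp12 (0.26), the monocyte-attracting chemokine gene Ccl2 (0.26) and Tes (0.28). Mmp12 was at 488 CPM and Ccl2 at 1137 CPM in day 14 replicate 4, their highest libraries at that day, and at 354 and 531 CPM in day 4 replicate 1, their highest at that one. The nearest to Cd274 were the tetraspanin gene Cd9 (0.15), Blcap (0.15) and the protein C receptor gene Procr (0.16), and none of these passed the test (edgeR adjusted p = 0.125, 0.142 and 0.131). The nearest to Cd80 were Ttpal (0.08), the adhesion molecule gene Alcam (0.10) and Ahnak (0.10), those to Cd86 were Aebp2, Rc3h2 and Itpripl2 (0.05 to 0.06), and those to Cd40 were Ganc, Apba1 and Hps5 (0.06 to 0.07).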
